A study of Mus musculus with 12 samples.

Results

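The transcriptional response of autophagy-competent mouse keratinocytes to paraquat was measured on 6 of the 12 arrays of the series, 3 of sham-treated and 3 of paraquat-treated cultures. These are all arrays whose labels read wt and whose source is given as keratinocytes with the genotype Atg7 f/f K14::Cre -. The letters f/f stand for Atg7 alleles flanked by recombination sites, which all 12 samples carry, and the wt cells have no K14::Cre to recombine them. The other 6 arrays hold the KO cultures, Atg7 f/f K14::Cre +, in which the promoter of a basal keratin drives the recombinase. They entered the fit to help estimate the spread between arrays, and they are the second arm wherever the wt response is compared with the KO response. Cells grew in KGM-2 medium, were treated at 50% confluence with 20 µM paraquat or sham, and gave RNA 48 h later. The series calls the 3 samples of a group biological triplicates but ties none to an animal or a culture dish, so p-values measure the spread between these samples. The age, sex and body site of the donor mice were not given in the sources used here. Every gene with a probe set of its own was tested, 22180 genes in all, each by its brightest probe set.

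Paraquat is a herbicide that takes an electron from cellular reductases and passes it to oxygen, which yields superoxide in repeated cycles. Cells answer oxidants with the NRF2 pathway, a transcription factor released from its inhibitor to switch on genes of thiol and NADPH metabolism, and with the p53 pathway where DNA is damaged. Keratinocytes have a further programme of their own. They leave the basal layer, stop dividing, let go of the basement membrane and build the cornified envelope, a shell of crosslinked proteins and lipids that becomes the outer barrier of the skin. Autophagy, which needs Atg7 to attach LC3 proteins to membranes, clears oxidised proteins and organelles, and wt is the genotype that keeps it.

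The 6 wt arrays separated by treatment along the first principal component of all 12 arrays, which held 64.4% of the variance (wt sham -36.01 to -25.81, wt paraquat 39.21 to 40.2). Replicate arrays of a group correlated at 0.988 to 0.991 over all probe sets, which are not independent replicates, and 0 pairs of arrays were identical. The array wt sham 2 stood apart from its group mates on the first component, at -25.81 against -36.01 and -35.28, on the side of the paraquat arrays. On the second component, which held 12.22% of the variance, the 3 wt sham arrays were spread out. There wt sham 2 scored 31.39 and its group mates 11.36 and 20.39. Counts of mitosis, DNA replication and cyclin genes are given with and without it. Defining keratinocyte genes were bright in each wt array. Krt14, a basal keratin, read 10889, 10954 and 10806 in sham and 8933, 8945 and 9003 under paraquat, and Perp, a desmosomal membrane protein, read 8071, 8119 and 7835 and 7350, 7926 and 8160. Signals below are RMA signals on a linear scale, where the median probe set of an array reads 42 to 45 and background was not measured. Folds that start or end near those levels are therefore folds over dim signal. Atg7 itself read 293, 356 and 286 in wt sham and 442, 442 and 457 in wt paraquat arrays, higher under paraquat in each array (log2 change 0.53 ± 0.13 SE, adjusted p = 0.00873). It read 105, 111 and 103 in KO sham and 129, 148 and 96 in KO paraquat arrays, and KO sham lay -1.55 log2 units from wt sham (adjusted p = 2.80e-05).

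Paraquat changed the level of 6480 of the 22180 genes in wt cells, which is 29.2% of them, at an adjusted p under 0.05 (limma's moderated test, Benjamini-Hochberg over all genes). Of these, 3311 genes (14.9%) were higher and 3169 (14.3%) were lower, and the median log2 change over all genes was 0.01. Changes of at least 2-fold that passed the test numbered 683 higher (3.08%) and 471 lower (2.12%). These shares are the background against which the counts of gene groups below are to be read. Standard errors of the log2 changes of the listed genes ran from 0.07 to 0.73, with a median of 0.11. In bulk RNA, more cells in a given state and more RNA per cell cannot be told apart.

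The outline of the response is given by the 25 genes that rose most and the 25 that fell most without overlap of the wt arrays. Of the 25 rises, 12 lay in the epidermal differentiation complex, the chromosomal cluster of cornified envelope genes, and 9 had a mean sham signal under 45. Lce3f led them with signals of 47, 137 and 43 in sham and 3400, 3799 and 3784 under paraquat (log2 change 5.81 ± 0.32 SE, adjusted p = 2.59e-08). Dhrs9, a retinol and hydroxysteroid dehydrogenase, followed at 45, 72 and 45 against 2623, 2801 and 2533 (log2 change 5.65 ± 0.22 SE, adjusted p = 2.38e-09). The others outside the complex were Alox12b, Psca, Glul, Cxcl3, Atp13a4, Pla2g4d, Tfcp2l1, Csta3, Kctd4, Pnpla1, Defb3 and Fam3b, with log2 changes from 3.61 for Fam3b to 4.70 for Alox12b. The falls were led by Fn1, which encodes fibronectin, at 2116, 1600 and 2237 in sham and 85, 84 and 84 under paraquat (log2 change -4.54 ± 0.17 SE, adjusted p = 1.28e-09). Postn, Acta2, Tgfbi, Tnc and Myl9 are matrix and contractile genes among the falls, and Niban1, Slc7a3, Pck2, Trib3 and Aldh1l2 are genes of amino acid stress. The remaining falls were Tslp, B4galnt2, Depp1, Cd59a, Acot2, Pdgfb, Car6, Chl1, Moxd1, Ctsc, Cyb5r1, Heg1, Pi15 and Dpysl3, with log2 changes from -3.16 for Tslp to -2.49 for Dpysl3. Of the 25 falls, 5 ended at a mean signal under 45.

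**Figure D1:**
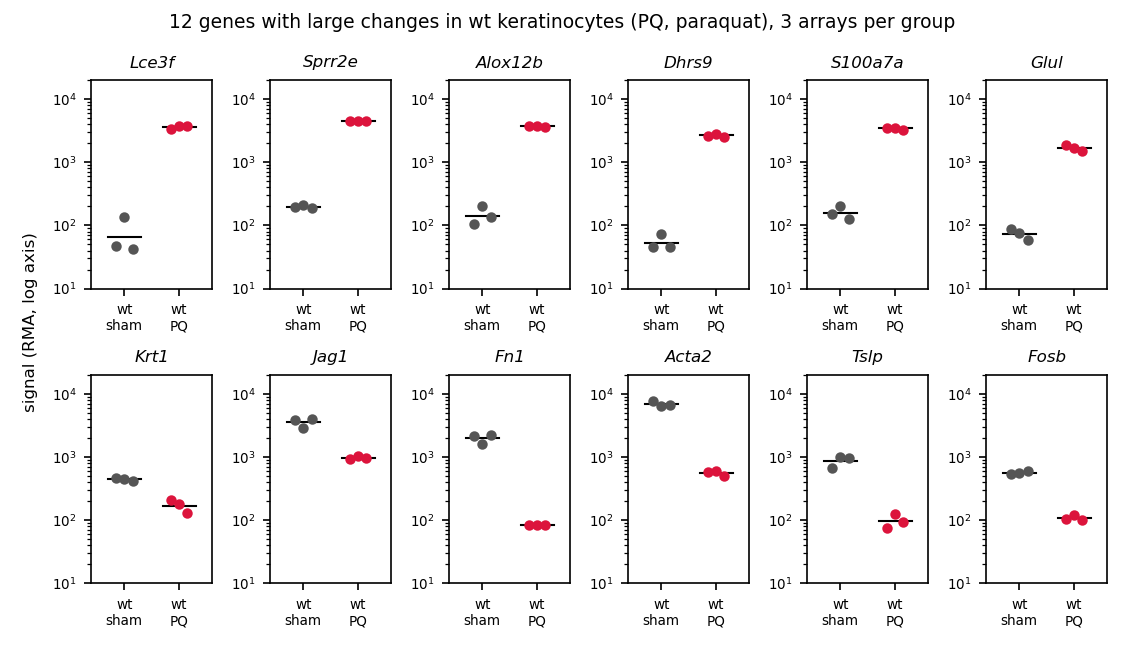
Signals of 12 genes (log axis) in the 3 wt sham arrays (grey) and the 3 wt paraquat arrays (red), with a line at each group's mean on the log2 scale. In each of the 12 genes the groups do not overlap, from Lce3f, up by 5.81 log2 units, to Fn1, at -4.54.

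Genes of the cornified envelope rose as whole families. All 6 measured LCE3 genes rose, with a median log2 change of 5.31, and all 14 genes of the LCE1 group and its relatives rose, with a median of 2.63. Whether copies within these families share probes was not checked, so the members may not be separate measurements. Late cornified envelope proteins are small, cysteine-rich components laid down at the end of differentiation. Lce3c read 409, 754 and 505 in sham and 9062, 9349 and 9342 under paraquat (log2 change 4.10 ± 0.23 SE, adjusted p = 3.42e-08). Lce3d went from 203, 300 and 210 to 7594, 7645 and 7636 and Lce1e from 53, 65 and 35 to 1658, 1669 and 1506. No paraquat array of these 3 genes came near a sham array, and wt sham 2 was the highest of the sham arrays in each. Lce6a (15, 16 and 16 against 52, 55 and 41) and Lce1k (9, 9 and 7 against 54, 55 and 42) were dim in sham and rose less, by 1.64 and 2.59 log2 units. Kprp, the keratinocyte proline-rich protein that lies among the LCE genes, rose from 359, 462 and 286 to 4819, 4883 and 4350 (log2 change 3.69 ± 0.20 SE, adjusted p = 2.44e-08).

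Of 12 measured small proline-rich (SPRR) genes, which encode crosslinkers of the envelope, 11 rose and 0 fell, with a median log2 change of 1.95. Sprr2e was the largest, at 198, 208 and 190 in sham and 4410, 4470 and 4569 under paraquat (log2 change 4.50 ± 0.20 SE, adjusted p = 5.06e-09). Sprr2f rose from a dim level, 15, 23 and 14, to 227, 284 and 286, and Sprr2h rose from 213, 300 and 219 to 902, 1075 and 916. Sprr2b was the member that did not pass, at 1160, 990 and 838 and 1012, 1136 and 1021, so the groups overlapped. Near-identical SPRR2 copies can share probes, so values of single members are uncertain. In the filaggrin family with loricrin and involucrin, 9 of 10 rose and 0 fell, with a median of 1.92. Ivl, involucrin, the scaffold on which the envelope starts, rose from 241, 304 and 284 to 1907, 1835 and 1727 (log2 change 2.73 ± 0.14 SE, adjusted p = 1.77e-08). Cnfn, cornifelin, rose from 2314, 3405 and 2026 to 12669, 12430 and 12881. Tchhl1 and Rptn, S100-fused proteins of the same locus, rose by 2.82 and 2.36 log2 units, and Flg, filaggrin, which bundles keratin filaments, by 1.66. Loricrin, a major late envelope protein, rose less, Lor reading 87, 115 and 81 and 158, 180 and 141 (log2 change 0.77). Flg2 read 18, 25 and 21 and 27, 24 and 22 and did not pass.

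**Figure D2:**
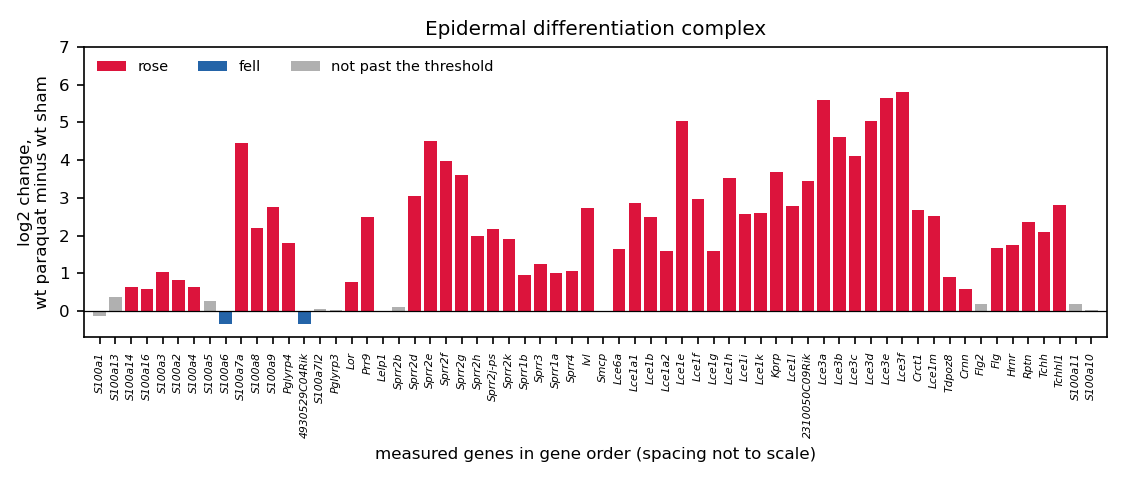
Log2 change (wt paraquat minus wt sham) of the 64 measured genes of the epidermal differentiation complex in gene order, each bar a gene, coloured by whether it rose, fell or did not pass the test. All 20 bars of the LCE genes with Kprp and Crct1 lie above 0, with Lce3f the tallest at 5.81.

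Gene order shows how much of the response sat in this one cluster. Between S100a1 and S100a10, 51 of 64 measured genes rose and 2 fell, with 43 rises of at least 2-fold and a median log2 change of 1.95. All 20 LCE genes there, counted with Kprp and Crct1, rose by at least 2-fold, as did 10 of the 12 SPRR genes, while 8 of 15 S100 genes rose, 4 of them by that much. Of the 682 placed genes that rose at least 2-fold, 159 (23.31%) stood next to another such gene, whereas 5.781% of all 22123 placed genes had such a neighbour. Runs of at least 3 neighbours numbered 15. The longest held 21 genes from Lce6a to Lce1m, and others held Sprr2d to Sprr2k (7 genes), Klk11 to Klk6 (6), Flg to Tchhl1 (5), Il1f8, Il1f9, Il1f6 and Il1f5 (4), Pla2g4e, Pla2g4d and Pla2g4f with Ehd4 (4), and Aloxe3, Alox12b and Alox8 (3). Genes that fell at least 2-fold had 1 such run of 3 microRNA genes, and 47 of 471 (9.979%) had such a neighbour against 4.19% of all placed genes.

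Promoters of the SPRR and filaggrin families are shown because most of them hold a match to a loose form of the AP-1 motif. They were chosen after the matches were seen. AP-1, the dimer of Jun and Fos proteins that drives late epidermal genes, has the usual site TGACTCA or TGAGTCA. The letters searched were TGANTCA, which is looser because any letter may stand in the middle. Both strands were searched in the 300 bases from 250 before to 50 after each start in RefSeq's annotation. Of 10 SPRR genes with such a sequence, 8 (80%) held it, of 10 genes of the filaggrin group 7 (70%), and of all 16990 measured genes with a promoter 8.42%. None of the 6 LCE3 and 11 LCE1-group promoters held it (0%). Genes that rose at least 2-fold held it in 14.9% of 538 promoters and genes that fell at least 2-fold in 5.76%. SPRR promoters are partly copies of each other, so the members are not independent. A match is a description of letters, not a bound site. The sequences shown are from RefSeq on GRCm38.p6 and are read 5′ to 3′ along the gene, with the matched letters in capitals. They lie at chr3:92485961-92486057 (minus strand) for Sprr1a, chr3:92351920-92351986 (plus strand) for Sprr2e, chr3:92364960-92365026 (plus strand) for Sprr2f, chr3:92385457-92385523 (plus strand) for Sprr2h, chr3:93273413-93273479 (plus strand) for Flg, chr3:93393573-93393639 (plus strand) for Rptn, chr3:93468637-93468703 (plus strand) for Tchhl1, chr3:92573815-92573881 (minus strand) for Ivl and chr3:92083154-92083220 (minus strand) for Lor.
Sprr1a: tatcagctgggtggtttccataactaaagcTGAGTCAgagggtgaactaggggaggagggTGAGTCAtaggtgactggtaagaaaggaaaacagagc
Sprr2e: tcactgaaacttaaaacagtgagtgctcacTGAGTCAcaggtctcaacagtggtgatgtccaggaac
Sprr2f: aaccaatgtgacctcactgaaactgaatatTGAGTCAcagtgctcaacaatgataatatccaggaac
Sprr2h: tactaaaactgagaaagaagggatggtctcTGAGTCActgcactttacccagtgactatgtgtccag
Flg: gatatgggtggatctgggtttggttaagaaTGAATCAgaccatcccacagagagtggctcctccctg
Rptn: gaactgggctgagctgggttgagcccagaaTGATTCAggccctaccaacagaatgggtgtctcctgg
Tchhl1: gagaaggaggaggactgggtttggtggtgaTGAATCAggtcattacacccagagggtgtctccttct
Ivl: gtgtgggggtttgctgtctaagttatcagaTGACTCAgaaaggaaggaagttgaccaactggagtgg
Lor: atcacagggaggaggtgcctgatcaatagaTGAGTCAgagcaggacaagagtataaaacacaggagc
The match lay upstream of the start in all 9, and Sprr1a held 2 of them. In Flg, Rptn and Tchhl1 the middle letter of the match is A or T, so these are not the usual AP-1 site.

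Enzymes that crosslink, trim and seal the envelope rose with it. Of 15 transglutaminases and envelope partners, 9 rose and 1 fell. Tgm1, the membrane-bound transglutaminase of the epidermis, read 343, 417 and 382 in sham and 1410, 1313 and 1182 under paraquat (log2 change 1.77 ± 0.13 SE, adjusted p = 2.86e-07). Scel (sciellin), Sbsn (suprabasin) and Ppl (periplakin) rose by 1.41, 0.95 and 0.93, while Krtdap, an early suprabasal gene, read 2762, 3286 and 2676 and 2777, 2894 and 2792 and did not pass. Of 31 epidermal proteases and inhibitors, 25 rose and 0 fell, with a median log2 change of 0.81. Prss8, a channel-activating serine protease that the barrier needs, rose from 321, 409 and 324 to 1767, 1909 and 1770 (log2 change 2.38 ± 0.12 SE, adjusted p = 1.34e-08). The kallikreins Klk8 and Klk9, serine proteases of the shedding layer, rose from 598, 645 and 532 to 1821, 1749 and 1618 and from 92, 108 and 78 to 713, 627 and 547. Stfa2l1 and Stfa3, stefins that inhibit cysteine proteases, rose by 3.18 and 2.95, and Tmprss11d, a membrane serine protease, by 2.21. Serpinb5 was bright and did not pass (3883, 3531 and 3554 and 3791, 3622 and 4023). Stefin and kallikrein copies are similar in sequence, so the share of each copy is uncertain.

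Barrier lipid genes followed the same direction, 23 of 31 rising and 2 falling, with a median of 0.80. The 2 lipoxygenases that act in turn on the linoleate of acylceramides rose. Alox12b read 106, 203 and 136 in sham and 3788, 3734 and 3639 under paraquat (log2 change 4.70 ± 0.21 SE, adjusted p = 5.94e-09), and Aloxe3 read 196, 261 and 259 and 1888, 1849 and 1911 (log2 change 2.99 ± 0.14 SE, adjusted p = 8.23e-09). Pnpla1, which makes acylceramide, rose from 73, 134 and 93 to 1425, 1488 and 1414, and its activator Abhd5 from 406, 420 and 379 to 1127, 1106 and 1073. Ugcg, which puts glucose on ceramide, rose by 2.08 and Lipn, a lipase of the granular layer, by 3.21. Sptlc3, a subunit of the enzyme that starts sphingolipid synthesis, went the other way, from 580, 819 and 665 to 210, 253 and 215 (log2 change -1.60 ± 0.14 SE, adjusted p = 1.81e-06).

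**Figure D3:**
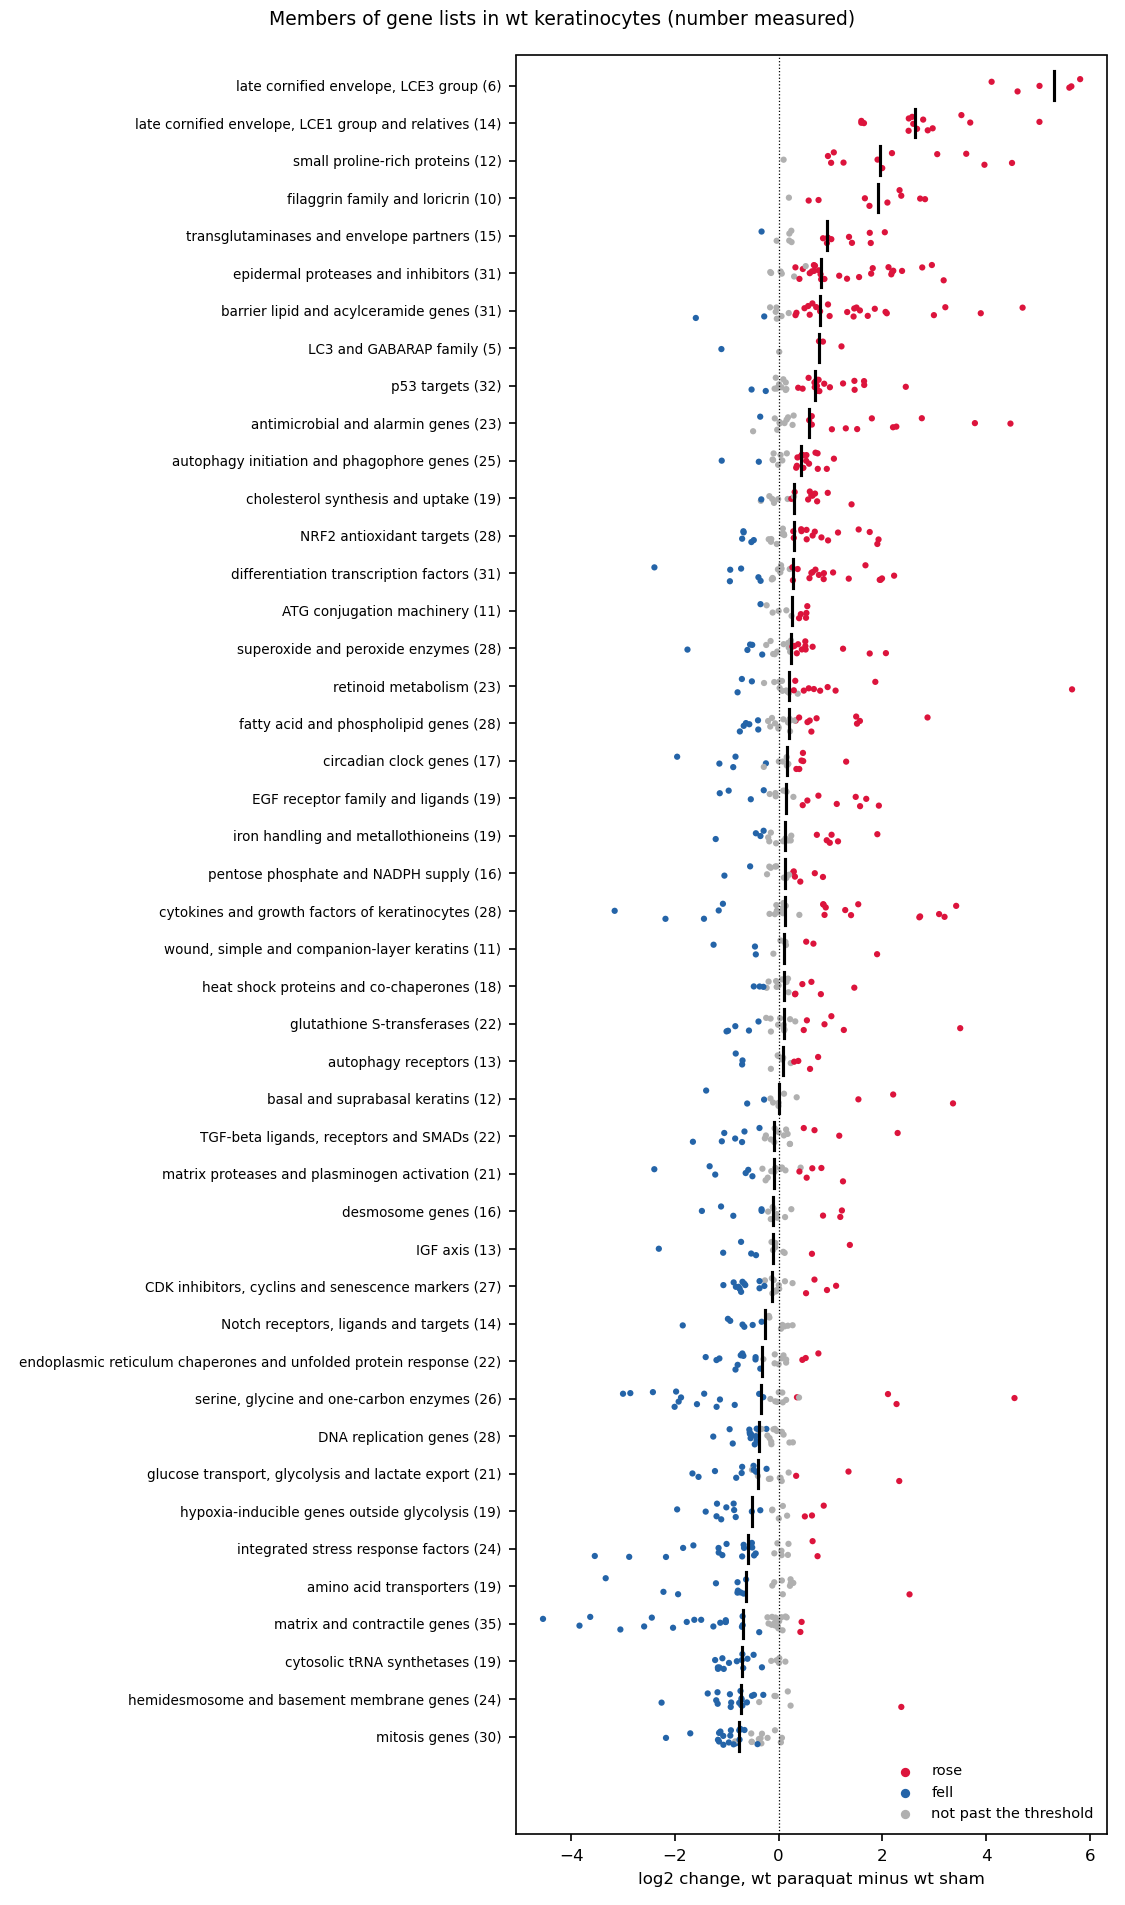
Log2 change (wt paraquat minus wt sham) of each measured member of the gene lists (cell type markers left out) in which at least 50% of members passed the test, ordered by the median (black line), with the number measured in brackets. Lists of envelope genes sit at the top, with the LCE3 median at 5.31, and mitosis genes lie at the bottom, at -0.76.

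Transcription factors of differentiation moved in both directions. Of 31, 17 rose and 6 fell. Grhl3, a grainyhead factor of barrier formation, rose from 512, 565 and 493 to 2477, 2455 and 2397 (log2 change 2.23 ± 0.11 SE, adjusted p = 1.46e-08). Prdm1 and Ovol1, which encode repressors, rose from 418, 425 and 373 to 1715, 1747 and 1391 and from 278, 305 and 278 to 1131, 1164 and 1065. Elf3 and Cebpa, an epithelial ETS factor and a C/EBP factor, rose by 1.95 and 1.35. The falls included Fos and Fosb, partners of Jun in AP-1. Fosb read 538, 559 and 607 in sham and 103, 122 and 100 under paraquat (log2 change -2.39 ± 0.11 SE, adjusted p = 6.94e-09) and Fos 1276, 1612 and 1398 and 700, 726 and 802 (log2 change -0.94 ± 0.12 SE, adjusted p = 3.23e-05), with no overlap in either. Jun read 1100, 1155 and 1333 and 1143, 1279 and 1240 and Trp63, the p63 gene of basal identity, 961, 838 and 914 and 801, 811 and 862, and neither passed.

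The Notch pathway, in which Jagged ligands on one cell cut loose the Notch receptor tail of its neighbour to drive spinous fate, moved one way: 0 of 14 members rose and 7 fell, with a median of -0.26. The ligand Jag1 read 3813, 2845 and 4003 in sham and 926, 1025 and 980 under paraquat (log2 change -1.85 ± 0.12 SE, adjusted p = 1.33e-07), and Jag2 fell (log2 change -0.66). The receptor Notch1 fell from 1335, 1237 and 1579 to 853, 850 and 846. Its target Hes1 fell from 1199, 1309 and 1152 to 630, 639 and 645 (log2 change -0.93 ± 0.10 SE, adjusted p = 5.73e-06), and the feedback gene Nrarp and the glycosyltransferase Lfng fell (log2 changes -0.50 and -0.98). Notch2, Notch3 and Rbpj, the pathway's DNA-binding factor, did not pass, at log2 changes of 0.18, 0.27 and 0.07.

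Keratins moved in both directions. Krt1 and Krt10, the pair that marks spinous cells, were lower under paraquat. Krt1 read 468, 454 and 421 in sham and 206, 183 and 130 under paraquat (log2 change -1.40 ± 0.15 SE, adjusted p = 1.07e-05), and Krt10 read 289, 201 and 249 and 167, 167 and 147 (log2 change -0.61 ± 0.15 SE, adjusted p = 0.00664). The basal keratin Krt14 fell (log2 change -0.28). Krt80, Krt78 and Krt23 rose, Krt80 from 986, 1184 and 1009 to 3304, 3214 and 2709 and Krt23 from a dim 30, 28 and 22 to 280, 295 and 242. Among 11 wound, simple and companion-layer keratins 3 rose and 3 fell. Krt6b and Krt16, which appear in wounds and in culture, rose by 0.67 and 0.53, Krt75 rose by 1.90, and Krt17 and Krt79 fell (log2 changes -0.44 and -1.25). Krt6a read 8508, 8496 and 7958 and 8725, 9074 and 9136 and did not pass.

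Anchors to the basement membrane fell. Of 24 hemidesmosome and basement membrane genes 18 fell and 1 rose, with a median of -0.72. Itgb4, the integrin chain of the hemidesmosome, read 2418, 2044 and 2702 in sham and 1023, 1017 and 1053 under paraquat (log2 change -1.20 ± 0.13 SE, adjusted p = 9.37e-06). Col7a1, the anchoring fibril collagen, fell from 393, 279 and 434 to 67, 88 and 74 (log2 change -2.26 ± 0.16 SE, adjusted p = 1.76e-07), and Itgb6, Lamb1 and Cd151 fell (log2 changes -1.37, -0.91 and -0.92). Nid1, nidogen, a linker of laminin and collagen, was the single riser, from 237, 195 and 237 to 1117, 1130 and 1185 (log2 change 2.36 ± 0.21 SE, adjusted p = 1.49e-06). Genes of junctions between cells moved in both directions. Of 16 desmosome genes 3 rose and 5 fell, and the list was not sorted by epidermal layer. The cadherin Dsc2 rose from 1384, 1318 and 1344 to 3171, 3170 and 3074. Another cadherin, Dsg1b, rose from 617, 889 and 862 to 1347, 1515 and 1372. The cadherin Dsg2 fell from 609, 384 and 527 to 197, 175 and 165, and Pkp4 and Pkp2 fell (log2 changes -1.11 and -0.87). Of 19 tight junction genes 3 rose and 3 fell, a share of called genes near the 29.2% of all genes. The 3 falls dropped to 1 when any of wt sham 1, wt sham 3, wt paraquat 2 or wt paraquat 3 was left out. Ocln (occludin) and Tjp1 rose by 1.03 and 0.79. Among gap junction genes Gjb6 rose by 1.20, Gjb2 and Gjb5 fell (log2 changes -0.92 and -0.59), and Gja1, Gja3, Gjc1, Panx1 and Panx3 did not pass.

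Matrix and contractile genes, many of them targets of TGF-beta, held the largest of the 25 falls above, that of Fn1. Of 35, 19 fell and 2 rose, with a median of -0.69. Acta2, smooth muscle actin, read 7792, 6471 and 6562 in sham and 579, 608 and 494 under paraquat (log2 change -3.63 ± 0.11 SE, adjusted p = 6.60e-10). Tnc, tenascin C, was lower without overlap. Myl9, a myosin light chain, fell from 827, 795 and 739 to 154, 142 and 138, and Tpm2 and Cnn2 (log2 changes -1.49 and -1.02). The paraquat arrays lay within a narrow band in each of these, whereas wt sham 2 was the lowest sham array for Fn1, Acta2 and Tpm2. Bgn and Sparc, fibroblast matrix genes, read 116, 111 and 113 and 113, 114 and 114 in sham and did not pass. Among 22 TGF-beta ligands, receptors and SMADs 4 rose and 7 fell. Tgfb1, a ligand, fell from 377, 423 and 372 to 239, 263 and 240, and Inhba, a chain of activin (log2 change -0.84). Fst, follistatin, which binds activin, rose from 564, 471 and 545 to 2439, 2588 and 2697 (log2 change 2.29 ± 0.08 SE, adjusted p = 1.28e-09). Smad7, the inhibitory SMAD, rose by 1.17, and Pmepa1, a pathway target, and Bmp1 fell (log2 changes -1.05 and -1.65). In matrix proteolysis 5 of 21 genes rose and 6 fell. Timp3, an inhibitor bound to matrix, fell from 2985, 2867 and 3159 to 551, 639 and 527 (log2 change -2.40 ± 0.13 SE, adjusted p = 3.00e-08), whereas its relative Timp2 rose from 359, 345 and 318 to 925, 821 and 683 (log2 change 1.24 ± 0.17 SE, adjusted p = 6.97e-05). Adamts1 and Mmp9 fell (log2 changes -1.22 and -1.33), and Plaur and Mmp14 did not pass.

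Ligands of the EGF receptor moved in both directions. Of 19 genes of the EGF receptor family, 8 rose and 4 fell. The ligands Hbegf, Tgfa and Ereg rose, Hbegf from 526, 476 and 553 to 2008, 1879 and 2034 (log2 change 1.93 ± 0.11 SE, adjusted p = 3.36e-08), Tgfa from 158, 145 and 150 to 460, 416 and 394 and Ereg from 194, 252 and 240 to 635, 658 and 733. Epgn, a further ligand, went the other way, from 3775, 5056 and 4216 to 3125, 2864 and 2945 (log2 change -0.54 ± 0.12 SE, adjusted p = 0.0029). The receptor Erbb2 fell (log2 change -1.14) and Lrig1, which removes receptors (log2 change -0.96). The feedback genes Errfi1 and Dusp5 rose by 1.12 and 1.69, while Spry2 and Dusp6 did not pass. In the IGF axis 2 of 13 genes rose and 5 fell. Igfbp2 fell from 1589, 1178 and 1478 to 280, 289 and 281 (log2 change -2.31 ± 0.11 SE, adjusted p = 1.06e-08), and the receptors Igf1r and Insr fell (log2 changes -0.72 and -1.07). Igfbp3 rose by 1.37, from sham arrays that spread widely (772, 304 and 517) to 1349, 1176 and 1327.

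Cytokines went in both directions. Of 28 measured, 12 rose and 5 fell. Il24 rose from 295, 264 and 278 to 2545, 2221 and 2376 (log2 change 3.09 ± 0.12 SE, adjusted p = 1.60e-09). A block of neighbouring genes of the interleukin 1 family rose together: Il1f9 from 201, 212 and 183 to 1837, 1896 and 1727, Il1f5, which encodes an antagonist, from 154, 151 and 159 to 999, 1079 and 994, and Il1f8 and Il1f6 by 3.42 and 2.71. Tslp, an epithelial alarm signal to dendritic cells, was lower, reading 662, 1001 and 953 in sham and 75, 124 and 95 under paraquat (log2 change -3.16 ± 0.21 SE, adjusted p = 1.10e-07). Il23a and Csf1 fell (log2 changes -2.18 and -1.44), with the sham arrays of Il23a spread from 183 to 449. Among 21 chemokines 6 rose and 3 fell. The rises were led by neutrophil attractants, Cxcl5 from 37, 52 and 39 to 314, 336 and 349, Cxcl3 from 31, 14 and 29 to 490, 392 and 447 and Cxcl1 from 684, 578 and 674 to 1800, 1591 and 1904. Cxcl12 fell from 311, 306 and 254 to 69, 52 and 48 (log2 change -2.38 ± 0.13 SE, adjusted p = 3.35e-08).

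Of 23 antimicrobial and alarmin genes, 12 rose and 1 fell, with a median of 0.59. S100a7a, the mouse psoriasin, read 149, 202 and 125 in sham and 3534, 3517 and 3272 under paraquat (log2 change 4.47 ± 0.18 SE, adjusted p = 2.80e-09). S100a8 and S100a9, which pair as calprotectin, rose from 936, 1241 and 1095 to 4723, 4741 and 5553 and from 484, 621 and 597 to 3816, 3680 and 3963. The beta-defensins Defb3 and Defb14 rose by 3.78 and 2.27 and Slpi, a protease inhibitor, by 1.51, while S100a10 and Pglyrp3 did not pass. In the LY6 family, small anchored surface proteins, 6 of 17 rose and 2 fell. Psca rose from 86, 79 and 58 to 1973, 1886 and 1780 (log2 change 4.68 ± 0.16 SE, adjusted p = 9.31e-10) and Lypd5 from 342, 412 and 430 to 2494, 2513 and 2262, whereas Ly6d rose by 0.52 from an already bright level.

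The oxidant defence genes rose in part. Of 28 NRF2 targets 15 rose and 5 fell, with a median of 0.29. Hmox1, which breaks down haem, read 763, 1204 and 813 in sham and 3395, 3402 and 3378 under paraquat (log2 change 1.90 ± 0.17 SE, adjusted p = 1.68e-06), wt sham 2 being the highest sham array. Txnrd1, thioredoxin reductase, rose from 582, 724 and 565 to 2127, 2130 and 2022 (log2 change 1.76 ± 0.10 SE, adjusted p = 3.48e-08), and Nqo1, a quinone reductase, from 225, 150 and 174 to 689, 641 and 728 (log2 change 1.92 ± 0.13 SE, adjusted p = 2.03e-07). Fth1, the ferritin heavy chain that stores iron, rose from 4966, 4646 and 4827 to 11024, 10094 and 10796. The 5 falls included Slc7a11, the cystine importer, from 480, 651 and 579 to 339, 349 and 376 (log2 change -0.67 ± 0.11 SE, adjusted p = 2.60e-04), and Sqstm1, an autophagy receptor, from 1818, 2751 and 2006 to 1369, 1267 and 1339 (log2 change -0.70 ± 0.14 SE, adjusted p = 0.0016). Nfe2l2, which encodes NRF2 itself, read 1434, 1598 and 1385 and 1473, 1517 and 1637, and Gclc, of glutathione synthesis, 1179, 999 and 1079 and 1156, 1145 and 1137, and neither passed. The core letters of the antioxidant response element, TGACNNNGC on either strand, stood in 39.1% of 23 NRF2 target promoters and in 14.9% of all 16990. The window of Txnrd1 (chr10:82859084-82859152 (plus strand)) shows 1 such match on the opposite strand.
Txnrd1: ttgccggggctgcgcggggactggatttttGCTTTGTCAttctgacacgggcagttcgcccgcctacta

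Of 28 enzymes that remove superoxide and peroxide, some of them NRF2 targets too, 12 rose and 5 fell. Sod2, the mitochondrial superoxide dismutase, read 879, 803 and 825 in sham and 984, 926 and 956 under paraquat and did not pass, nor did Txn1. Glrx, glutaredoxin, rose from 625, 885 and 559 to 2725, 3100 and 2695 (log2 change 2.07 ± 0.19 SE, adjusted p = 2.50e-06), Gpx1 by 0.51 and Srxn1, sulfiredoxin, by 0.65. Msrb3, a methionine sulfoxide reductase, fell from 630, 475 and 558 to 163, 158 and 168 (log2 change -1.76 ± 0.11 SE, adjusted p = 6.66e-08), and the falls in this list numbered 3 in place of 5 without wt sham 1. Among 22 glutathione S-transferases and relatives 6 rose and 5 fell (3 without wt sham 1). Gsta4, which detoxifies lipid aldehydes, rose from 465, 391 and 412 to 4780, 4792 and 4722 (log2 change 3.50 ± 0.11 SE, adjusted p = 6.60e-10), while Gstp1 fell from 1114, 1199 and 1046 to 647, 577 and 659 and Mgst3 (log2 change -0.98). Of 22 superoxide sources and enzymes that can pass an electron to paraquat 3 rose and 6 fell, with a median of 0.005. The rises included Txnrd1 and Nqo1, given above with the NRF2 targets. Cyb5r1 fell from 818, 1130 and 1139 to 184, 160 and 168 (log2 change -2.58 ± 0.12 SE, adjusted p = 8.38e-09), Cyb5r3 (log2 change -0.43) and Vdac1 (log2 change -0.51), and Duox1, which makes hydrogen peroxide at the cell surface (log2 change -0.58). Of the 14 transporters of polyamines and organic cations, a class known to carry paraquat, 1 rose and 3 fell. That share of called genes is near the 29.2% of all genes. Most of the falls, Slc3a2 among them, are of genes also counted among the amino acid transporters. The riser was the efflux pump Abcb1b, from 303, 261 and 297 to 639, 696 and 639 (log2 change 1.20 ± 0.09 SE, adjusted p = 3.61e-07). In iron and metal handling 6 of 19 rose and 4 fell. Mt1 and Mt2, metallothioneins that bind zinc and copper, fell (log2 changes -0.44 and -0.35), Slc40a1, the iron exporter, fell (log2 change -1.21), and the importers Slc39a8 and Slc39a14 rose by 1.02 and 0.93. Among 9 genes around the aryl hydrocarbon receptor Tiparp, Nqo1 and Cyp1b1 rose, by 1.56, 1.92 and 0.99, while Ahr, the receptor, Cyp1a1 and the other 4 did not pass. Here too the share of called genes was near the 29.2% of all genes.

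Targets of p53 rose, 20 of 32 with 2 falling and a median of 0.69. Mdm2, the ligase that removes p53, read 972, 1128 and 919 in sham and 3015, 3220 and 3183 under paraquat (log2 change 1.65 ± 0.09 SE, adjusted p = 3.41e-08). Ccng1 and Cdkn1a, which encodes the p21 inhibitor of cell division, rose from 3111, 3131 and 2821 to 5791, 6200 and 5974 and from 4226, 5116 and 4207 to 7381, 7100 and 7290. Cd80, Gtse1, Dcxr and Ddit4l rose by 2.45, 1.65, 1.46 and 1.46. Plk2 and Perp were bright and did not pass. In the BCL2 family 2 of 17 rose and 2 fell, a share of called genes under the 29.2% of all genes. Bcl2l1 and Mcl1, which guard against cell death, rose by 0.77 and 0.50, Bnip3 fell (log2 change -0.83), and Pmaip1 and Bak1, which promote it, did not pass.

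Mitosis genes were lower under paraquat, against sham arrays that differed among themselves. Of 30, 18 fell and 0 rose, with a median of -0.76. Mki67, the proliferation marker, read 1239, 369 and 969 in sham and 184, 182 and 145 under paraquat (log2 change -2.17 ± 0.33 SE, adjusted p = 1.70e-04), and Anln, anillin of the cleavage furrow, read 1053, 465 and 762 and 242, 239 and 187 (log2 change -1.70 ± 0.22 SE, adjusted p = 4.61e-05). In both, wt sham 2 was the lowest sham array and still above the paraquat arrays. Over the whole list the mean log2 signal was 8.11, 6.88 and 7.73 in the 3 sham arrays and 6.85, 6.89 and 6.74 in the 3 paraquat arrays, so wt sham 2 stood among the paraquat arrays. Without wt sham 2, 28 of the 30 fell; without wt sham 1 or wt sham 3, 11 fell; and in the fit of the 6 wt arrays alone, 8 fell. Kif20a read 310, 96 and 213 against 188, 183 and 159, Plk1 370, 133 and 258 against 192, 169 and 133 and Cdc20 330, 161 and 273 against 254, 252 and 248, all 3 overlapping and not past the threshold (Kif20a and Plk1 passed it without wt sham 2). In DNA replication 15 of 28 genes fell and 0 rose (18 falls without wt sham 2, 10 without wt sham 3 and 9 without wt sham 1), with a median of -0.38. The mean log2 signal of that list was 7.66, 7.19 and 7.55 in the sham arrays and 7.16, 7.12 and 7.09 in the paraquat arrays, so wt sham 2 lay next to the paraquat arrays here too. Pole, a replicative polymerase, fell from 252, 140 and 236 to 89, 82 and 83, Mcm2 and Mcm6 of the helicase (log2 changes -0.88 and -0.94), and Pcna (log2 change -0.53), while Rrm2 and Mcm4 did not pass. Among 27 CDK inhibitors, cyclins and senescence markers 4 rose and 12 fell (4 and 13 without wt sham 2). Ccnd2, cyclin D2, fell from 2885, 2781 and 2650 to 1461, 1596 and 1503, Cdk2 (log2 change -0.75) and Hmgb1, whose loss from the nucleus marks senescence (log2 change -0.77). Cdkn2c and Cdkn1c rose by 1.11 and 0.93, while Cdkn1b fell (log2 change -0.66). Myc read 1437, 1868 and 1823 and 1532, 1744 and 1625. Mitosis promoters are known for the cell cycle homology region, with the letters TTTGAA, where repressor complexes sit in resting cells. It stood in 76% of 25 mitosis promoters and in 17.8% of all. The Mki67 window (chr7:135716442-135716525 (minus strand)) holds 2.
Mki67: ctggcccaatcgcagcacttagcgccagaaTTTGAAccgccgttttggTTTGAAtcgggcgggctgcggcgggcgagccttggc

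**Figure D4:**
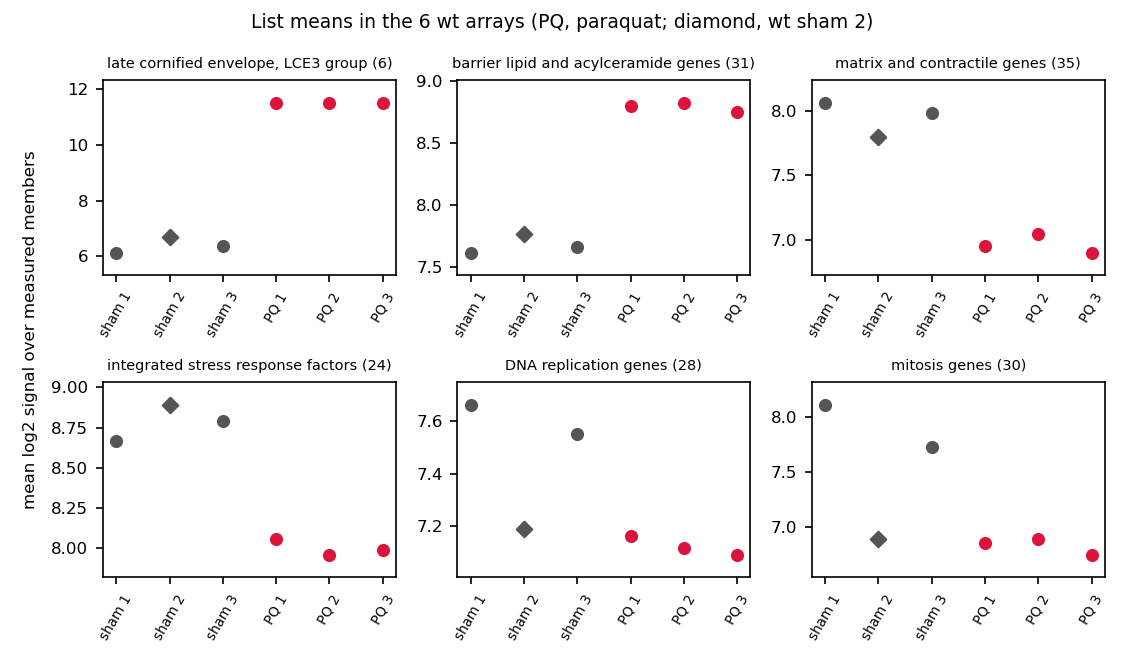
Mean log2 signal over the measured members (number in brackets) of 6 gene lists in each of the 6 wt arrays, sham in grey and paraquat in red, with wt sham 2 as a diamond and a separate y axis in each panel. For mitosis genes wt sham 2 sits at 6.88, inside the range of the paraquat arrays, whereas for LCE3 genes all sham arrays lie between 6.13 and 6.68 and all paraquat arrays between 11.5 and 11.53.

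The amino acid stress programme was high in wt sham cells and low under paraquat. ATF4, the factor of the integrated stress response, switches on transporters, synthesis enzymes and tRNA synthetases when amino acids run short or when eIF2 is phosphorylated. Of 24 factors and feedback genes of that response 16 fell and 2 rose, with a median of -0.59. Trib3, a feedback inhibitor of ATF4, read 536, 624 and 655 in sham and 84, 76 and 86 under paraquat (log2 change -2.88 ± 0.10 SE, adjusted p = 9.31e-10). Niban1 read 810, 937 and 947 and 83, 72 and 76 (log2 change -3.54 ± 0.11 SE, adjusted p = 6.60e-10), and Atf5, Stc2, Jdp2 and Vldlr fell (log2 changes -1.16, -1.84, -1.64 and -1.16). Atf4 itself read 2916, 3242 and 3066 and 3135, 2877 and 3061, so its mRNA did not pass the test. Cebpb and Eif2ak2 rose by 0.65 and 0.75. Of 19 amino acid transporters 10 fell and 1 rose. Slc7a5 and Slc3a2, the 2 chains of the large neutral amino acid exchanger, fell from 2830, 3208 and 3289 to 687, 655 and 656 and from 2446, 2876 and 2827 to 1596, 1500 and 1600. Slc7a3, a cationic amino acid carrier, fell from 273, 523 and 391 to 39, 35 and 40 (log2 change -3.33 ± 0.17 SE, adjusted p = 1.66e-08). Slc1a1, a glutamate carrier, was the riser, from 150, 93 and 112 to 614, 738 and 654 (log2 change 2.52 ± 0.17 SE, adjusted p = 1.19e-07).

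In serine, glycine and one-carbon metabolism 14 of 26 genes fell and 4 rose. Pck2, the mitochondrial PEP carboxykinase, fell from 704, 697 and 790 to 98, 85 and 91 (log2 change -3.00 ± 0.10 SE, adjusted p = 9.31e-10). Shmt2 and Mthfd2, which pass a carbon unit from serine in mitochondria, fell from 2360, 2426 and 2347 to 862, 909 and 867 and from 1124, 1177 and 1198 to 332, 296 and 265, and Aldh1l2 and Aldh18a1 fell (log2 changes -2.86 and -2.42). Against this, Glul, glutamine synthetase, rose from 88, 75 and 58 to 1902, 1677 and 1527 (log2 change 4.55 ± 0.19 SE, adjusted p = 4.55e-09), and Odc1 and Arg2, which feed polyamine synthesis, rose from 645, 856 and 599 to 2860, 2875 and 3215 and by 2.27 log2 units. Of 19 cytosolic tRNA synthetases and the tRNA exporter 14 fell and 0 rose, with a median of -0.70. Nars fell from 2993, 3654 and 3216 to 1690, 1534 and 1502 (log2 change -1.06 ± 0.09 SE, adjusted p = 1.09e-06), and Eprs, Lars, Sars, Mars1 and Xpot fell (log2 changes -1.17 to -0.81), while Qars, Cars and Kars did not pass. The C/EBP-ATF response element, searched as TGATGNAA on either strand, stood in 31.8% of 22 promoters of response factors, 33.3% of 12 of tRNA synthetases and 3.92% of all 16990. Windows of 4 fallen genes are shown, Chac1 (chr2:119351019-119351086 (plus strand)), Vldlr (chr19:27216790-27216857 (plus strand)), Slc7a11 (chr3:50443623-50443709 (minus strand)) and Pck2 (chr14:55540133-55540200 (plus strand)).
Chac1: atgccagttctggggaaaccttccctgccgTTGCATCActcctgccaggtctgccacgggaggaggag
Vldlr: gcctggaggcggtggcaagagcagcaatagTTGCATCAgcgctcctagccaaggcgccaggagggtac
Slc7a11: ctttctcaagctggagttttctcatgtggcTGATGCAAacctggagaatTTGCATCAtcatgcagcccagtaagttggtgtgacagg
Pck2: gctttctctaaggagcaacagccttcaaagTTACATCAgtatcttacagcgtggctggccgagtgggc
The matches, in capitals, lay before the start in each, and Slc7a11 held 2 that face each other.

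Many of these genes responded differently in KO cells. Over all genes the wt and KO responses differed for 508 of 22180 (2.29%), with 199 more positive and 309 more negative in wt, by the interaction term of the same fit. In the amino acid lists the difference passed for 12 of 24 response factors, 8 of 19 transporters, 11 of 26 one-carbon enzymes and 11 of 19 tRNA synthetases. Trib3 changed by -2.88 in wt and -0.48 in KO (difference -2.40 ± 0.13 SE, adjusted p = 1.85e-06), Slc7a3 by -3.33 and -0.06 (-3.27 ± 0.24 SE, adjusted p = 2.36e-05), and Niban1 by -3.54 and -0.47 (-3.07 ± 0.16 SE, adjusted p = 1.02e-06). The 2 sham groups differed for 2273 genes (10.2%), and these were among them. Trib3 read 129, 130 and 130 in the KO sham arrays, -2.22 log2 units from wt sham (adjusted p = 6.44e-08), and 85, 101 and 94 in the KO paraquat arrays. Slc7a3 read 39, 34 and 38 and 34, 35 and 37 in KO, levels at which the wt paraquat arrays also lay. Slc7a11 changed in opposite directions, by -0.67 in wt and 1.05 in KO (-1.73 ± 0.15 SE, adjusted p = 6.96e-05), from 222, 233 and 211 to 496, 435 and 451 in KO arrays. Sqstm1 changed by -0.70 in wt and by 0.39 in KO, where it did not pass (-1.09 ± 0.20 SE, adjusted p = 0.0134). Each of these 5 differences stayed past the threshold in the 6 fits that left out 1 wt array each.

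**Figure D5:**
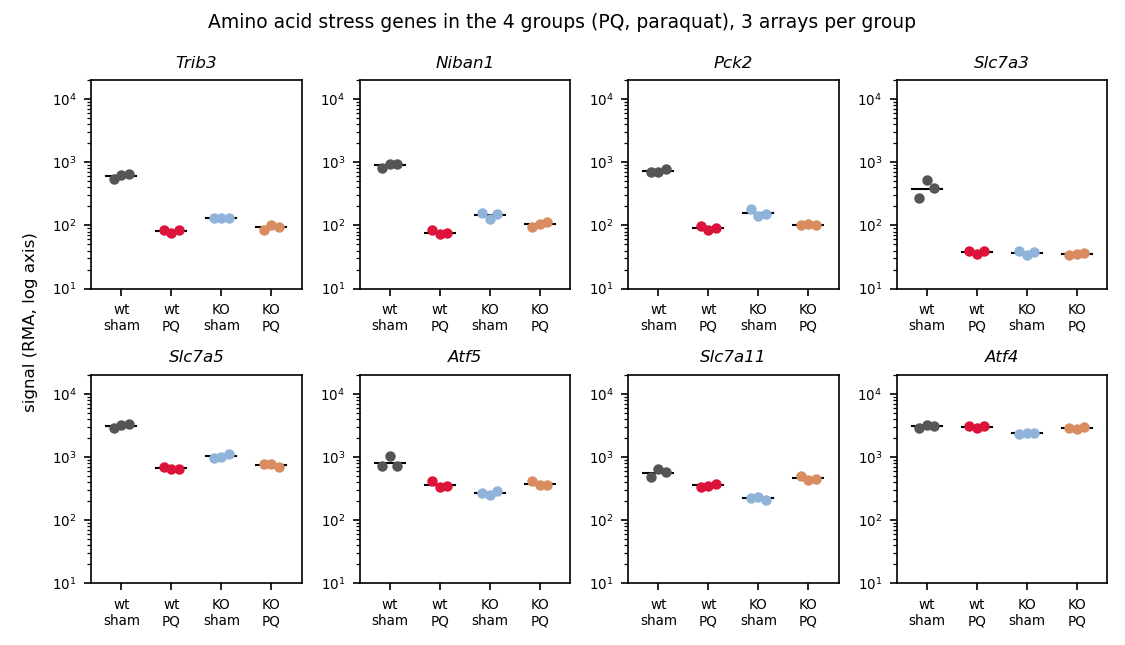
Signals (log axis) of 8 amino acid stress genes in the 4 groups, 3 arrays each, with a line at each group's mean on the log2 scale. For Trib3, Niban1, Pck2, Slc7a3 and Slc7a5 the wt sham arrays stand above the other 3 groups, while Atf4 reads 2316 to 3242 over all 12 arrays.

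Chaperones of the endoplasmic reticulum fell more often than they rose, 11 of 22 against 3. Xbp1, a transcription factor of the unfolded protein response, fell from 682, 998 and 842 to 368, 335 and 385 (log2 change -1.20 ± 0.12 SE, adjusted p = 6.76e-06) and Ero1a, an oxidase for disulfide bonds, from 3060, 3206 and 3235 to 1267, 1216 and 1106 (log2 change -1.41 ± 0.08 SE, adjusted p = 2.24e-08). Sel1l, Pdia6, Hyou1 and Herpud1 fell (log2 changes -1.14, -0.83, -0.73 and -0.68). Dnajb9 and Edem1 rose by 0.77 and 0.46, and Pdia3 and Canx did not pass. Of 18 heat shock genes 6 rose and 3 fell. Cryab, a small heat shock protein, rose from 1071, 1131 and 911 to 2895, 2778 and 2848 (log2 change 1.46 ± 0.16 SE, adjusted p = 1.04e-05), Dnajb1 by 0.46, and the mitochondrial Hspa9 fell (log2 change -0.48). Hspa1b, the inducible Hsp70, read 1681, 2038 and 1302 and 1566, 1390 and 1267 and did not pass.

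Autophagy genes rose by small amounts. Of 25 initiation and phagophore genes 16 rose and 2 fell, with a median of 0.43. Atg2a and Wipi1, which feed lipid to the growing membrane and bind its phosphoinositide, rose from 196, 211 and 187 to 427, 418 and 397 and from 231, 180 and 196 to 383, 404 and 363, and Rb1cc1 and Atg9b rose by 0.54 and 0.75. Ulk2, a starting kinase, fell from 331, 340 and 358 to 145, 166 and 171 (log2 change -1.10 ± 0.08 SE, adjusted p = 2.77e-07). Becn1, Uvrag and Ambra1 did not pass. In the conjugation machinery 5 of 11 rose and 1 fell: Atg3, Atg12, Atg5 and Atg7 rose by 0.55, 0.54, 0.43 and 0.53, and Atg10 fell (log2 change -0.35). Of the 5 LC3 and GABARAP genes Gabarap, Gabarapl2 and Map1lc3a rose, Gabarap from 2878, 3178 and 2660 to 4850, 4937 and 5116 (log2 change 0.78 ± 0.09 SE, adjusted p = 1.13e-05). Map1lc3b, the usual LC3 of autophagy assays, fell from 1311, 1534 and 1228 to 608, 637 and 644 (log2 change -1.10 ± 0.11 SE, adjusted p = 5.00e-06), and Gabarapl1 did not pass. Of 13 receptors 4 rose and 3 fell, with 2 rises left when wt paraquat 3 was left out. Nbr1 and Retreg1 rose by 0.60 and 0.76. Of 28 lysosome genes 11 rose and 2 fell. The proton pump subunits Atp6v0d1, Atp6v1a and Atp6v1b2 rose by 0.82, 0.64 and 0.60, while Hexa and Psap, which act in sphingolipid breakdown, fell (log2 changes -1.43 and -0.65). Lamp1, a membrane protein of lysosomes, did not pass. The falls numbered 4 with 16 added to each signal, with dim genes left out or after a second quantile normalization.

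Mitochondrial genes moved in both directions. Of 32 respiratory chain subunits 5 rose and 4 fell (2 falls without wt sham 2, 1 without wt paraquat 2), a share of called genes near the 29.2% of all genes. Ndufa4 rose from 1261, 1393 and 1153 to 2494, 2401 and 2538 (log2 change 0.97 ± 0.10 SE, adjusted p = 5.88e-06). Sdha fell (log2 change -0.33), and Atp5b, Atp5a1 and Cox6a1 did not pass. Among 21 mitophagy and quality genes 4 rose and 6 fell. Lonp1, the matrix protease, fell from 747, 1052 and 895 to 246, 242 and 260 (log2 change -1.84 ± 0.11 SE, adjusted p = 5.73e-08), while Clpp, a subunit of another matrix protease, rose from 275, 358 and 270 to 469, 516 and 539 (log2 change 0.76 ± 0.10 SE, adjusted p = 7.77e-05). Of 21 genes of glucose transport, glycolysis and lactate export 10 fell and 3 rose, with a median of -0.40. The transporter Slc2a1 fell from 6193, 5453 and 5862 to 1916, 2040 and 2044 (log2 change -1.54 ± 0.08 SE, adjusted p = 1.46e-08), the lactate exporter Slc16a1 from 857, 971 and 975 to 289, 314 and 283, and Pfkp and Pfkl (log2 changes -1.23 and -0.71). Pfkfb4 and Ldhb rose by 2.32 and 1.35, and Pgam1 did not pass. Of 19 hypoxia-inducible genes outside glycolysis 11 fell and 3 rose, with a median of -0.52. Hif1a fell from 2911, 3246 and 2857 to 1367, 1464 and 1351 (log2 change -1.11 ± 0.09 SE, adjusted p = 5.60e-07), and Vegfa and Car12 fell (log2 changes -1.19 and -1.20), while Plod2 and Adm rose by 0.87 and 0.64. In the supply of NADPH 6 of 16 rose and 2 fell, with 3 rises in the fit of the 6 wt arrays alone. Me1, malic enzyme, and Rpia rose by 0.70 and 0.85, and Idh2, a mitochondrial source, fell (log2 change -1.04).

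Lipid mediators and lipid synthesis genes rose more often than they fell. Of 26 phospholipase, prostaglandin and lipoxygenase genes 11 rose and 1 fell. Pla2g4d and Pla2g4e, cytosolic phospholipases of one gene cluster, rose from 29, 36 and 40 to 560, 665 and 569 and from 123, 94 and 103 to 1186, 1135 and 1118 (log2 change 3.43 ± 0.19 SE, adjusted p = 2.30e-08), and Pla2g4f by 1.44. Ptges, prostaglandin E synthase, rose from 317, 283 and 305 to 1446, 1427 and 1570 (log2 change 2.30 ± 0.12 SE, adjusted p = 1.46e-08). Alox12 fell (log2 change -0.77), while Pla2g4a, the widely expressed phospholipase, read 527, 419 and 419 and 390, 458 and 401 and did not pass. Of 19 cholesterol genes 10 rose and 1 fell. Dhcr7, the last enzyme of cholesterol synthesis, rose from 680, 476 and 570 to 1514, 1473 and 1536 (log2 change 1.40 ± 0.11 SE, adjusted p = 5.09e-07), and Hsd17b7, Fdft1 and Cyp51 by 0.70, 0.63 and 0.74, while Sqle did not pass. In fatty acid and phospholipid metabolism 10 of 28 genes rose and 6 fell. Lpin2, Lpin1 and Agpat2, steps toward diacylglycerol, rose by 2.87, 1.51 and 1.49 and Dgat2, which makes triglyceride, by 1.57, while Elovl5 and Acsl4 fell (log2 changes -0.75 and -0.67). In retinoid metabolism 10 of 23 rose and 3 fell. Beside Dhrs9, Aldh1a3 and Rdh10, enzymes that make retinoic acid, rose by 1.86 and 0.94 and Cyp26b1, which degrades it, by 1.10. Fabp5 fell from 5619, 5995 and 5324 to 3430, 3339 and 3588, and Crabp2 and Rbp2 did not pass.

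Of 17 clock genes 6 rose and 5 fell. Bhlhe40, a repressor that also answers hypoxia, fell from 2835, 2310 and 2630 to 738, 620 and 644 (log2 change -1.96 ± 0.11 SE, adjusted p = 4.12e-08), Nfil3 and Nr1d2 fell (log2 changes -1.14 and -0.83), and Cry1 rose from 124, 184 and 130 to 368, 370 and 326 (log2 change 1.30 ± 0.13 SE, adjusted p = 4.64e-06). Per1 and Dbp did not pass. In the type I interferon list 3 of 23 members rose and 4 fell (2 falls in the fit of the 6 wt arrays alone), a share of called genes near the 29.2% of all genes. Mx1 and Usp18 rose at dim levels (11, 17 and 15 against 36, 32 and 30 for Mx1), while Irf1 fell (log2 change -0.88). Of 9 replication-dependent and linker histones 3 rose and 1 fell. H1f3 and H2bc21 rose by 1.31 and 0.70, H1f5 fell (log2 change -0.66), and the rise of H1f2 (423, 368 and 364 to 578, 640 and 662, adjusted p = 0.0212) was lost without wt sham 2, wt sham 3, wt paraquat 2 or wt paraquat 3. The other 5 did not pass.

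Markers of other cell types that a skin culture could hold were followed beside these results. The summed signal of 13 keratinocyte markers was 62410 to 64873 in wt sham and 53555 to 54809 in wt paraquat arrays, and 7 of the 13 fell and 0 rose, among them Cdh1 and Col17a1 (log2 changes -0.64 and -0.48). Fibroblast markers summed to 1264 to 1406 in sham and 1156 to 1271 under paraquat, with 2 of 19 higher and 2 lower. Col1a1, also in the matrix list, and Thy1 read 62, 77 and 61 and 75, 75 and 64 in sham and did not pass, and the part of fibroblasts in the falls of matrix genes was not tested. The 10 smooth muscle and pericyte markers summed to 8015 to 9720 in sham and 1679 to 1791 under paraquat, and most of that difference came from Acta2. Of the 10, 5 fell and 2 rose, the rises by at most 0.44 log2 units. Cnn1, Tagln, Cspg4 and Mcam fell (log2 changes -1.62, -1.26, -0.95 and -0.76), while Myh11 and Lmod1, which define smooth muscle, stood at 78, 67 and 71 and 52, 48 and 51 in sham and 75, 68 and 78 and 54, 46 and 53 under paraquat. Whether a smooth muscle-like cell had a part in the fall of Acta2 was not tested. Melanocyte markers summed to 542 to 636 in sham and 1049 to 1145 under paraquat, with 4 of 12 higher past the threshold (2 in the fit of the 6 wt arrays alone) and Mlana the largest, 67, 73 and 53 to 368, 371 and 398 (log2 change 2.57 ± 0.12 SE, adjusted p = 8.23e-09), while Tyrp1 and Sox10 did not pass. Leukocyte and Langerhans cell markers summed to 962 to 1014 in sham and 2198 to 2286 under paraquat. Of 16, 4 rose (1 with dim genes left out) and 1 fell, with a median log2 change of 0.08. Nearly all of the rise in the sum came from Cd68, a lysosomal protein of macrophages, which rose from 610, 559 and 593 to 1827, 1870 and 1778, while Cd207, Tyrobp and Fcer1g did not pass, with sham signals of 58, 51 and 50 for Cd207. Of 12 endothelial markers, which summed to 474 to 500 in sham and 675 to 748 under paraquat, 3 rose (5 without wt sham 2). Kdr, the VEGF receptor, rose from 51, 62 and 47 to 295, 253 and 197 (log2 change 2.21 ± 0.18 SE, adjusted p = 6.63e-07), while Tie1 and Eng did not pass. Hair follicle, sebaceous and Merkel cell markers summed to 507 to 536 and 549 to 611, with 3 of 16 rising and 1 when any of wt sham 1, wt sham 3 or wt paraquat 1 was left out. The share of called genes was near the 29.2% of all genes in the melanocyte, leukocyte and endothelial lists. It was under that in the fibroblast and the hair follicle lists. The part of these cell types in the wt response was not tested.

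The largest differences between the wt and KO responses outside amino acid metabolism also came with unequal sham levels. Acot2, a mitochondrial thioesterase, read 1891, 4427 and 3075 in wt sham and 442, 384 and 438 in wt paraquat, against 345, 304 and 287 and 429, 482 and 461 in KO (difference -3.37 ± 0.31 SE, adjusted p = 1.06e-04). B4galnt2, Heg1, Car6, Fam171b and Reep6 had the same form, falling in wt (log2 changes -2.96, -2.55, -2.68, -2.23 and -2.32) and changing in KO by 0.02, -0.13, 0.08, 0.31 and 0.11. wt sham 2 was the highest sham array in each of these 6 genes. On the other side, Stfa3 rose by 2.95 in wt and 0.44 in KO, where the sham arrays already read 1375, 1441 and 856 (2.51 ± 0.30 SE, adjusted p = 7.98e-04). Cxcl3, Csta3, Il24 and Psca likewise rose more in wt, by 4.25, 4.03, 3.09 and 4.68 against 2.05, 1.56, 1.34 and 2.90. Bub1b, Depdc1a and Knl1, genes of the dividing cell, and Clca3a2 fell more in KO, from KO sham levels above those of wt sham, with wt changes of 0.06, -0.56, -1.01 and -0.76 and KO changes of -1.50, -2.56, -2.57 and -3.34. Of these 4, Knl1 passed the test in wt. Without wt sham 2 the wt change of Depdc1a was -1.02 and passed (adjusted p = 5.34e-04, against 0.185 with it), and that of Bub1b was -0.33 and did not (adjusted p = 0.09). The differences of Bub1b, Depdc1a and Knl1 from KO missed the threshold in at least 1 of the 6 fits without 1 wt array. Of the 508 genes whose responses differed, 212 kept the call in all 6 fits without 1 wt array, and the count of such genes ran from 250 to 700 over those fits.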

How the data were processed

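RNA of 12 cultures was read on 12 Affymetrix whole-transcript arrays, 3 in each of 4 groups. The submitters' processing notes name RMA and Affymetrix Expression Console 1.3.1.187 for the deposited signal intensity of each probe set, and these deposited values are rounded whole numbers on a linear scale from 3 to 17695. The log2 of each deposited value was taken here. Of 41345 probe sets, 23521 carried 1 gene symbol, 1814 several and 16010 none in the platform's annotation, and 23328 matched the mouse gene table (GRCm38.p6) by identifier. For 1082 genes with more than 1 probe set, the one with the highest mean was used. The genome build of the probe sets was not given in the sources used here.

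All 12 arrays were fitted together with limma 3.58.1 (R 4.3.3), group means as terms and no covariate. P-values are two-sided and adjusted by Benjamini-Hochberg over 22180 genes, with a threshold of 0.05. The model with the wt contrast was written out again and tried on simulated data in which few genes changed. The contrast between wt and KO responses and the list counts were not tried in this way. The members and the 66 gene lists were chosen with earlier results of these data known, and no list was tested as a set. Named genes are the 25 largest rises and falls without overlap of the wt arrays and, per list, up to 6 members in order of p, up to 3 in the rarer direction and up to 3 that did not pass in order of signal. Lists of up to 10 members may be named in full, as may the 10 largest differences between wt and KO each way, Atg7, and neighbours in the gene order. Promoter windows were chosen after the matches were seen. Alternatives changed the scaling, the value added before the log2, the dim filter, the probe set rule, the variance model, the arrays used and the replicate term. The number of arrays limits the precision.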

Additional observations from a re-analysis of the deposited data

Results flagged for a closer look

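Of the genes named above, 88 responded differently to paraquat in wt and KO cells by the interaction term of limma's fit, at an adjusted p under 0.05. Each value is the log2 change in wt minus the log2 change in KO, so its sign does not say in which genotype a gene rose or fell. KO sham and wt sham levels differed for many of them. The wt change was above the KO change, and stayed so past the threshold in all 6 fits without 1 wt array, for Clca3a2 2.59, Stfa3 2.51, Csta3 2.47, Cxcl3 2.19, Psca 1.78, Il24 1.75, Lce1k 1.48, Lce6a 1.41, Lipn 1.22, Pfkfb4 1.15, Gsta4 1.15, Il1f9 1.14, Cd80 1.12, Fam3b 1.04. Further values of the same kind were those of Fst 0.82, Tiparp 0.75, Gtse1 0.75, Abcb1b 0.68. It was above the KO change in the fit of all arrays but not in each of those 6 fits for Depdc1a 2.00, Knl1 1.56, Bub1b 1.56, Igfbp3 1.47, Atp13a4 1.40, Cdc20 1.11, Slc1a1 1.07, Lpin2 0.94, Rrm2 0.92, Cyp1b1 0.92, Mcm4 0.84, Cxcl5 0.83, Cyp51 0.79, Cdkn2c 0.76. Further values of the same kind were those of Elf3 0.73, Cxcl1 0.60, Abhd5 0.59, Cd68 0.59, Ppl 0.56.

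The wt change was below the KO change in the same stable way for Acot2 -3.37, Slc7a3 -3.27, Niban1 -3.07, B4galnt2 -2.98, Car6 -2.77, Aldh1l2 -2.69, Fam171b -2.54, Reep6 -2.43, Heg1 -2.41, Trib3 -2.40, Pck2 -2.38, Cyb5r1 -2.21, Slc7a5 -1.75, Slc7a11 -1.73. Further values of the same kind were those of Atf5 -1.65, Stc2 -1.57, Mthfd2 -1.57, Aldh18a1 -1.55, Jdp2 -1.50, Fn1 -1.43, Lonp1 -1.39, Chac1 -1.34, Moxd1 -1.16, Sptlc3 -1.15, Chl1 -1.14, Acta2 -1.10, Sqstm1 -1.09, Nars -0.99. Further values of the same kind were those of Ulk2 -0.97, Vegfa -0.94, Xpot -0.94, Dpysl3 -0.92, Herpud1 -0.84, Sel1l -0.81, Slc3a2 -0.80, Sars -0.77, Lars -0.77, Ero1a -0.77, Shmt2 -0.76, Tgfb1 -0.68, Eprs -0.65, Hspa9 -0.57. It was below the KO change without holding in each of those 6 fits for Il23a -1.70, Cd59a -1.49, Mmp9 -1.03, Cxcl12 -0.95, Epgn -0.74, Nfil3 -0.69, Vldlr -0.63, Hexa -0.61, Ccnd2 -0.58.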

How the results depend on the processing

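The wt response held 6480 genes in the fit of all arrays. It held 5844 to 6768 under the other settings that used all 6 wt arrays and kept no minimum change, 5583 to 6314 without 1 wt array, 6251 without wt sham 2 and KO paraquat 3, and 1194 when a change of at least 1.5-fold was tested. Centring each array on its median gave 3032 higher and 3442 lower genes. The wt and KO responses differed for 508 genes. That count was 882 with 16 added before the log2, 894 with dim genes left out, 783 with a variance trend, 24 at 1.5-fold and 268 without wt sham 2 and KO paraquat 3. It was 250 to 700 without 1 wt array, the lowest without wt paraquat 1 and the highest without wt sham 1. No pairing by replicate number was seen. In their deviations from group means, same-numbered samples of different groups correlated at -0.073 to 0.09 and differently numbered ones at -0.126 to 0.145. Deviations from means of 3 arrays cannot exclude a pairing. With the replicate number as a block the counts were 6250 and 439. Of the 317 named genes past the threshold, 98 lost it in the 1.5-fold test and 1 (H1f2) under another setting. Of the other named genes 4 gained it under at least 1 setting, and 0 reversed a call. List counts built on small changes dropped most in the 1.5-fold test. Falls went from 18 to 2 for mitosis and from 15 to 1 for DNA replication. Rises went from 16 to 1 for autophagy initiation, 11 to 0 for lysosome, 15 to 5 for NRF2 and 20 to 8 for p53 targets. Barrier lipid rises went from 23 to 14. The cause of these shifts was not tested. With 3 arrays a group and no measure of background, small changes and changes of dim genes are the least certain.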
